A study of Mus musculus with 12 samples.

Results

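The genes described here encode the proteins of the cytosolic ribosome. They were chosen by name from the deposited gene table: every protein-coding gene called Rps or Rpl followed by its number, together with Rpsa, Rplp0, Rplp1 and Rplp2. The rule found 83 of the 54532 genes, 32 for the small subunit and 51 for the large subunit. RNA was sequenced from fetal mouse ovaries at E15.5 in 12 libraries, 3 in each of 4 groups, made up of 2 cell fractions (germ and somatic) and 2 treatments (dex and saline). Dex is dexamethasone, a synthetic agonist of the glucocorticoid receptor, and pregnant dams received 10 µg per g of it, or saline, into the peritoneum once a day from E12.5 to E15.5, which gave 4 doses. All embryos of all groups carried the same Pou5f1-GFP transgene (strain Tg(Pou5f1-EGFP)2Mnn), whose OCT4 regulatory sequence marks germ cells, so GFP-positive cells were collected as germ cells and the whole GFP-negative remainder of the ovary as somatic cells. A library is a pool of sorted cells from more than a single litter, with the litters dosed apart from each other, and not a single embryo, and the somatic libraries are a mixture of cell types.

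A ribosome is built from a small subunit, which reads the mRNA, and a large subunit, which joins amino acids, and each protein of either subunit is needed in about equal number. The mRNAs of these proteins are short and abundant, and most of them begin with a 5′ terminal oligopyrimidine (TOP) stretch, a run of C and T bases at the transcript's start through which growth signals control their translation as a group. A few ribosomal protein genes have paralogs with restricted expression, among them Rpl10l, Rpl39l and Rpl3l, of which the former pair is known from the male germline and Rpl3l from muscle. The genome also holds many processed pseudogenes of these genes. The rule by which reads with several matches were counted is not given in the sources used here, so values of members with near-identical copies are uncertain.

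Library totals ran from 14658503 to 18245507 counts, and 3 counts in a library corresponded to 0.169 to 0.201 CPM. CPM here is the count scaled to library size after TMM scaling over the 12 libraries, and FPKM is the authors' value per kilobase of exon. The summed level of 10 germ cell markers was 3541 to 4186 CPM in the germ libraries and 9.70 to 29.6 CPM in the somatic libraries, and that of 8 stromal markers was 120 to 255 CPM against 19670 to 25680 CPM. The summed level of 10 pregranulosa markers was 31.9 to 143 CPM in germ and 919.6 to 1310 CPM in somatic libraries, and that of 6 endothelial markers was 45.6 to 59.5 CPM against 275 to 341 CPM, so the germ libraries also held low levels of somatic markers. That of 6 macrophage markers was 31.5 to 48.5 CPM in germ libraries and 46.8 to 224 CPM in somatic libraries, which overlap. Haemoglobin genes made up 0.331% to 1.60% of somatic counts, and no germ library exceeded 0.00475%.

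The promoters are shown first, because most mRNAs of the family are known to begin with a pyrimidine run. RefSeq promoter sequence (GRCm38.p6) was at hand for 63 of the 83 members, and the longest run of C and T on the sense strand was read from the 50 bases before to the 50 bases after each annotated start. A run of at least 8 such bases was present in 52 of the 63 members (82.5%), and in 39.3% of all 27025 genes of the same table. The median longest run was 10 bases in members and 7 over all genes. Below, windows of 30 bases are printed with that run in capitals, for the 5 members that fell in germ cells after dex and for the germ cell paralogs Rpl10l and Rpl39l.
Rps27, chr3:90213632-90213661, minus strand: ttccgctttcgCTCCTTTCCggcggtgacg
Rpl39, chrX:37085173-37085202, minus strand: gttcttccggtcccggCCTTTCTCTTCTCC
Rps21, chr2:180257399-180257428, plus strand: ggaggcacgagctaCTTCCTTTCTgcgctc
Rps28, chr17:33824567-33824596, minus strand: tctgtcccgaggaTTCCTgggtaccgcgtg
Rpl37a, chr1:72711274-72711303, plus strand: cgcattgcgTCCCTTCCTCTTCggacttgg
Rpl10l, chr12:66284429-66284458, minus strand: tcagtctctatgaTTCCCgcaaggcttgat
Rpl39l, chr16:10170191-10170220, plus strand: aacacccactgCCTCTCCCTagctcccagg
The run was 9 bases long in Rps27, 14 in Rpl39, 10 in Rps21 and 13 in Rpl37a, but 5 in Rps28, so 4 of the 5 members that fell held a run of at least 8. Rpl10l had 5 and Rpl39l 9. The Rps27 run began 2 bases before the annotated start, whereas those of Rpl39, Rps21 and Rpl37a began 37, 35 and 24 bases into the transcript as annotated. Those of Rps28, Rpl39l and Rpl10l began at positions -21, -26 and -44 from the annotated start and lay wholly outside the transcript as annotated. All these positions are counted from the start annotated with the promoter sequence. It can differ from the gene bounds of the deposited table printed below, as it does for Rpl39 and Rpl37a. The Rpl39 run ended at the edge of the searched bases, so it may be longer than given. A run in these letters is a description of the sequence and not evidence of TOP control.

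To see whether germ cells altered their ribosomal protein mRNAs after dex, the 3 germ dex libraries were compared with the 3 germ saline libraries. All 83 members passed the filter on low counts. Of these, 5 fell (6.02%) and 0 rose, where the background over 16857 genes tested was 0.119% called lower and 0.089% called higher (edgeR quasi-likelihood test, with a call at a Benjamini-Hochberg adjusted p of at most 0.05). At an unadjusted p under 0.05, edgeR put 27 members lower and 3 higher. By its own adjusted p of at most 0.05, DESeq2 called 11 lower and 1 higher. Shares over all genes are not given for these settings, here or below, so these counts have no background beside them. The members that fell were Rps27, Rps21 and Rps28 of the small subunit and Rpl39 and Rpl37a of the large subunit. The median log2 fold change (dex against saline) was -0.084 over members and 0.014 over all genes tested, with -0.14 for the small subunit and -0.041 for the large.

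Rps27 (ENSMUSG00000090733, minus strand of chromosome 3, 90212522 to 90213651 on GRCm38), a zinc-binding protein of the small subunit, showed the lowest fold change of the family. Its level was 176, 168 and 173 CPM in the germ dex libraries and 273, 358 and 349 CPM in the germ saline libraries. The dex libraries lay close together and well under the saline libraries, a change of -0.92 on the log2 scale (SE 0.09, edgeR adjusted p = 0.00133). Rpl39 (chromosome X, 37082520 to 37085402), a very small protein at the exit tunnel of the large subunit, was at 91.7, 83.1 and 92.1 CPM after dex and at 130, 184 and 162 CPM after saline, a change of -0.83 (SE 0.11, edgeR adjusted p = 0.00636). Rps21 (chromosome 2, 180257377 to 180258445) fell from 335, 436 and 408 CPM to 240, 230 and 234 CPM, a change of -0.74 (SE 0.09, edgeR adjusted p = 0.00306). For each of these 3 genes the call held in 16 of 16 alternatives, including each omission of a library.

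The calls of Rps28 and Rpl37a were less firm. Rps28 (chromosome 17, 33819027 to 33824562), which lies near the mRNA exit of the small subunit, was at 222, 217 and 217 CPM after dex and 290, 419 and 328 CPM after saline (log2 fold change -0.66, edgeR adjusted p = 0.0382). Rpl37a (chromosome 1, 72711290 to 72713813) was at 232, 245 and 262 CPM after dex and 312, 394 and 346 CPM after saline (-0.50, edgeR adjusted p = 0.0435). Rps28 lost its call when germ dex library 2 or 3 or germ saline library 3 was left out, and Rpl37a lost it in 5 of 6 omissions. In number, 3 members were called lower without germ dex library 2, 3 without germ saline library 3 and 11 without germ saline library 1, which was the lowest of the saline libraries for Rps27, Rpl39, Rps21, Rps28 and Rpl37a.

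**Figure D1:**
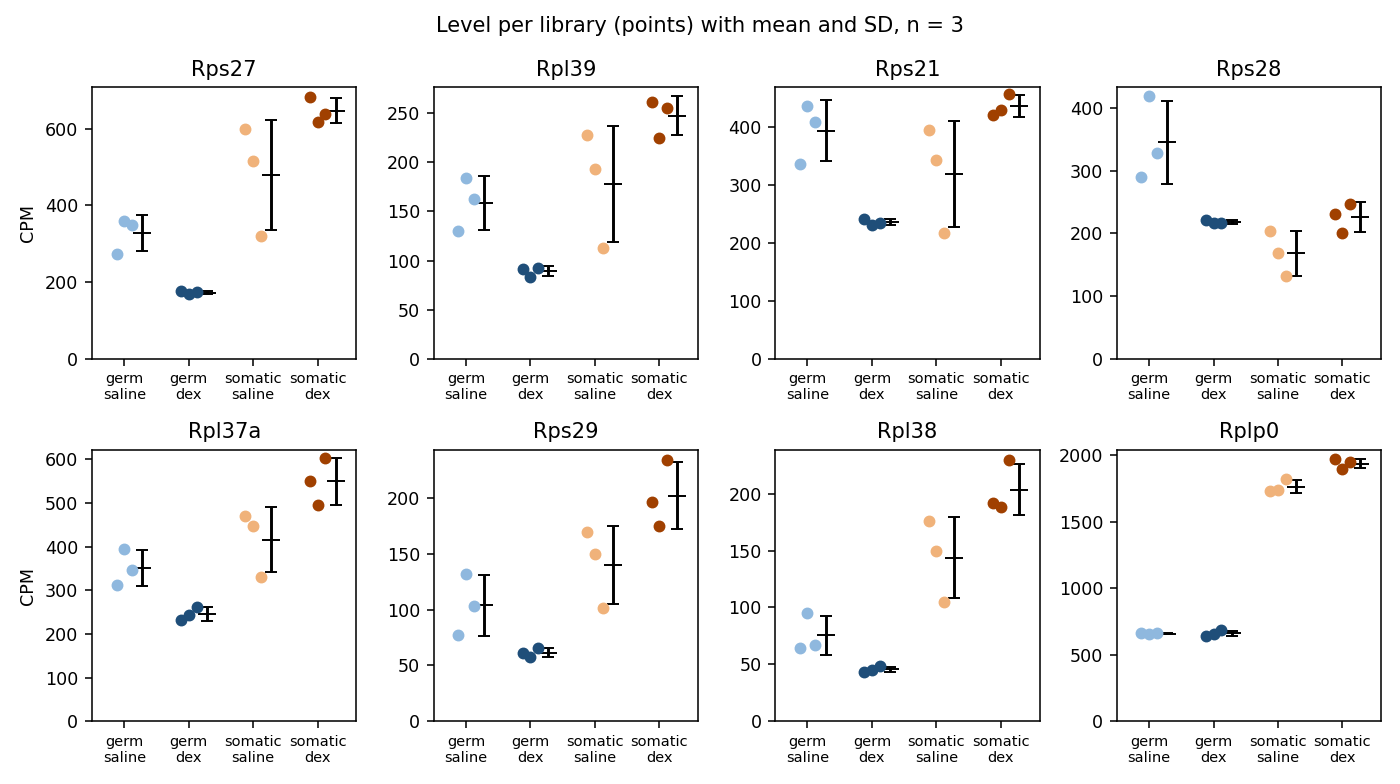
Levels of 7 short ribosomal protein mRNAs and of Rplp0 in CPM (vertical axes, from 0) in the 4 groups. Points are libraries, and the bar beside them is the mean with the SD (n = 3). In germ cells the 3 dex points lie under the 3 saline points for each of the 7 short genes, whereas Rplp0 is at 643 to 684 CPM after dex and 652 to 660 CPM after saline.

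Members just past the threshold had the same form. Rps29 was at 61.0, 57.6 and 66.1 CPM after dex and 76.9, 132 and 103 CPM after saline (log2 fold change -0.75, edgeR adjusted p = 0.0812). Rpl38, which is known for a role in the translation of Hox mRNAs, was at 43.7, 44.7 and 48.2 CPM against 64.1, 95.4 and 67.3 CPM (-0.72, edgeR adjusted p = 0.0538). Rpl30, the nearest to the threshold, was at 216, 175 and 234 CPM against 283, 302 and 323 CPM (-0.53, edgeR adjusted p = 0.0503). Rpl31 changed by -0.37 (edgeR adjusted p = 0.089). Counted over the family, 20 of 83 members (24.1%) had their 3 dex libraries under their 3 saline libraries and 2 (2.41%) had them above, where the background was 9.4% and 7.96% of the genes tested. The highest fold changes were those of Rpl26, Rpl24, Rps10, Rpl23a and Rpl3l, from 1.12 down to 0.22. None of these was called by edgeR, and DESeq2 called Rpl23a (0.34, edgeR adjusted p = 0.154, DESeq2 adjusted p = 0.0117). The stalk genes, whose products form the acidic arm of the large subunit that recruits elongation factors, gave 0.014 for Rplp0, -0.31 for Rplp1 and -0.041 for Rplp2. Rpsa, the laminin receptor protein of the small subunit, gave -0.066. None of these 4 was called (edgeR adjusted p from 0.339 to 0.952).

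In the somatic cells the members that passed the test were higher after dex. After the filter 80 members were tested, because Rpl10l, Rpl39l and Rpl3l were near 0 there. Of the 80, 21 rose (26.2%) and 0 fell, against a background of 4.81% called higher and 3.36% called lower over 16556 genes (edgeR). At an unadjusted p under 0.05 edgeR put 55 higher and 1 lower. By adjusted p, DESeq2 called 35 higher and 0 lower. The median log2 fold change was 0.18 over members, 0.21 for the small and 0.17 for the large subunit, and 0.00010 over all genes. The changes were small: leaving out Rpl26, the 20 other members called rose by 0.21 to 0.52 on the log2 scale.

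Large subunit members that rose included Rpl35a, from 243, 231 and 261 CPM after saline to 335, 380 and 283 CPM after dex (log2 fold change 0.44, SE 0.10, edgeR adjusted p = 0.0118). Rpl37 rose from 250, 224 and 194 to 288, 300 and 289 CPM (0.39, SE 0.08, edgeR adjusted p = 0.00967), and Rpl36a from 370, 337 and 332 to 411, 439 and 442 CPM (0.31, SE 0.07, edgeR adjusted p = 0.00988). In these 3 genes no dex library overlapped a saline library. Rpl34 (0.30), Rpl31 (0.30), Rpl5 (0.24), Rpl23 (0.27), Rpl41 (0.28), Rpl37a (0.40) and Rpl38 (0.50) also rose. In the small subunit, Rps6, the target of S6 kinase, rose from 717, 685 and 753 CPM to 846, 875 and 883 CPM (0.27, edgeR adjusted p = 0.0161). Rps23, at the decoding center, rose by 0.30 (edgeR adjusted p = 0.0118) and Rps27a, a ubiquitin fusion, by 0.26 (edgeR adjusted p = 0.0186). Rpsa rose from 1722, 1771 and 1794 CPM to 2026, 2172 and 2077 CPM (0.24, edgeR adjusted p = 0.0239). Of the stalk genes, Rplp0 (0.13), Rplp1 (0.057) and Rplp2 (0.17) were not called. The lowest values were those of Rps10 (-0.44), Rpl22l1 (-0.14), Rps18 (-0.084), Rpl13a (-0.022) and Rpl23a (0.011), none of them called.

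The somatic count depended on single libraries. It was 2 without somatic dex library 2, 2 without somatic saline library 2, 6 without somatic saline library 3, 12 without somatic dex library 1, 13 without somatic saline library 1 and 18 without somatic dex library 3. It was 10 when libraries were scaled by their totals. In each of these fits 0 members were called lower, and the median stayed between 0.16 and 0.21 in those that left out a library. Members took 5.08%, 5.26% and 5.46% of all counts in the somatic dex libraries and 4.76%, 4.76% and 4.65% in the somatic saline libraries, so these 2 groups did not overlap. In germ cells the share was 3.81%, 3.87% and 4.21% after dex and 3.81%, 4.37% and 4.32% after saline, and these groups did overlap. Intervals on such shares would cover counting error alone and are far narrower than the spread between libraries.

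Levels of some cell type markers in the somatic libraries also differed between the treatments. Of 6 macrophage markers, 4 fell after dex, and their summed level was 46.8 to 117 CPM after dex and 168 to 224 CPM after saline. Of 10 pregranulosa markers 1 fell, of 8 stromal markers 1 rose, and of 6 endothelial markers 1 rose and 2 fell. Of 6 erythroid and 4 perivascular markers 0 were called. The background over all genes tested was 4.81% called higher and 3.36% called lower, and a single call in a list this short says little. The sum of the 10 germ cell markers was 18.0 to 29.6 CPM after dex and 9.70 to 15.0 CPM after saline, with Pou5f1 and Dppa3 at 0 in all 3 dex libraries. Erythroid markers spread from 3316 to 16510 CPM after dex and from 7398 to 12470 CPM after saline. Their part in the somatic result was not tested, and in bulk libraries fewer cells of a type and less RNA per cell cannot be told apart.

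The difference between the 2 responses was tested directly, as the dex effect in germ cells minus the dex effect in somatic cells. Over 83 members, 15 were called lower (18.1%) and 0 higher, where the background over 19390 genes was 1.13% lower and 0.49% higher (edgeR). At an unadjusted p under 0.05 edgeR put 44 members lower and 4 higher. By adjusted p, DESeq2 called 26 lower and 0 higher. The median was -0.30 over members and 0.0050 over all genes. Of the 15, 7 encode small subunit proteins (Rps27, Rps29, Rps21, Rps28, Rps26, Rps14 and Rps20) and 8 large subunit proteins, among them Rpl39, Rpl38, Rpl37a, Rpl30, Rpl31, Rpl37 and Rpl35. Differences ran from -1.36 for Rps27 (SE 0.22, edgeR adjusted p = 0.00437) to -0.43 for Rps20 (SE 0.10, edgeR adjusted p = 0.0443). The 5 members called in germ cells were all among the 15, and 7 of the 15 were called in somatic cells. Rpl37a was the single member called in both cell types, lower in germ cells and higher in somatic cells.

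Rps27 illustrates the form of this difference. Its somatic level was 682, 618 and 639 CPM after dex and 599, 516 and 319 CPM after saline, a change of 0.43 with an edgeR adjusted p of 0.128, and saline library 3 lay far below the others. Rpl39 in somatic cells was at 262, 225 and 256 CPM after dex and at 228, 193 and 113 CPM after saline (0.47, edgeR adjusted p = 0.132). In Rps29 and Rpl38 the somatic rise was called: Rps29 was at 197, 175 and 234 CPM after dex and 170, 150 and 102 CPM after saline (0.52, edgeR adjusted p = 0.0456). Both somatic calls were lost in 5 of 6 omissions of a library. Somatic saline library 3 was the lowest of its group in Rps27, Rpl39, Rps29, Rps21, Rps28, Rpl37a and Rpl38. Without it 8 members were called in the difference, as without germ dex library 2 or germ saline library 3, and 22 were called without germ saline library 1. Rps27, Rpl39, Rps29, Rpl38, Rps21, Rps28, Rpl37a and Rpl31 were called in 22 of 22 alternatives.

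**Figure D2:**
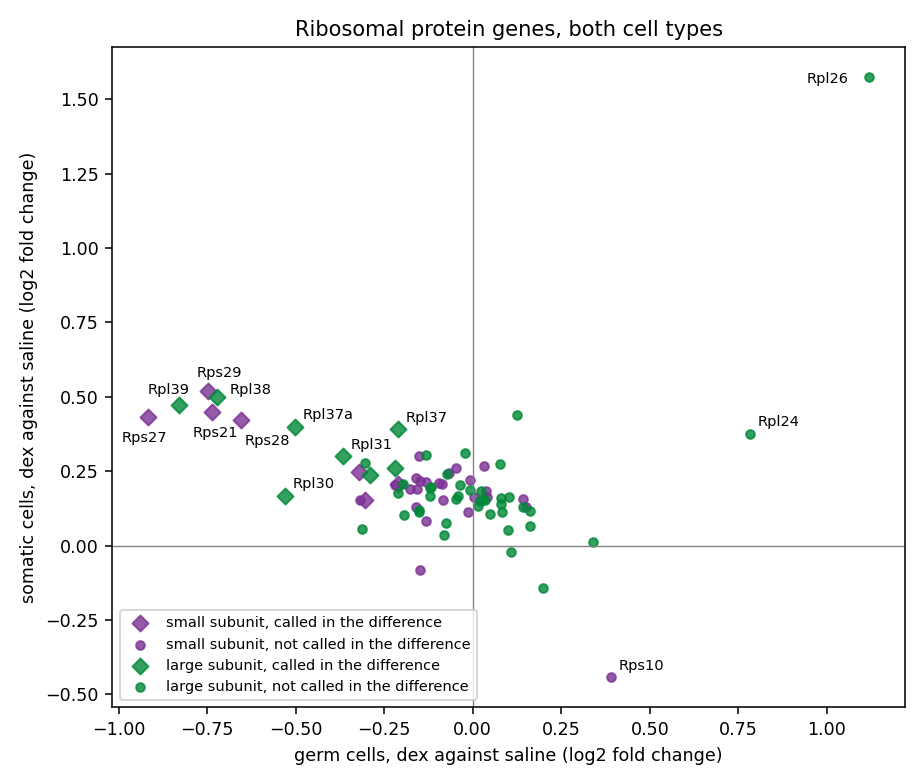
Log2 fold change of dex against saline in germ cells (horizontal axis) and in somatic cells (vertical axis) for the 80 members tested in both. Diamonds are members called in the difference. Of the 80, 51 lie at the upper left, lower in germ cells and higher in somatic cells, and Rpl26 stands apart at the upper right.

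The germ and somatic comparisons share no library, although the pools of a treatment may share embryos. A negative value in germ cells with a positive value in somatic cells was found for 51 of 80 members (63.7%), 24 of 32 small subunit and 27 of 48 large subunit members, and for 25.0% of the 14178 genes tested in both. The opposite pairing was found for 3 members, Rps10, Rpl22l1 and Rpl13a (named after their values were seen). Over members the values in germ and somatic cells were inversely ranked (Spearman's rho = -0.43 across 80 genes, which are not independent replicates, share libraries and normalization, and so carry no p), whereas rho over all genes was -0.0080.

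Members with a short coding sequence had lower germ fold changes than longer ones, with exceptions. Coding length was taken from GENCODE M21 as the longest coding sequence of each gene. Unlike the classes of gene_length, coding length and its limits, 300 bases among them, were not planned in advance. The counts, sums and shares by coding length are therefore descriptions. The file's gene_length, which merges the exons of all transcripts and had a median of 1739 bases over members, followed the pattern less closely: rho between gene_length and the germ fold change was 0.24, and rho between coding length and the germ fold change was 0.50. In somatic cells these were -0.21 and -0.42, and in the difference 0.28 and 0.56. In the classes of gene_length, the germ median was -0.31 for the 3 members up to 600 bases, -0.13 for the 10 from there to 1000, -0.095 for the 35 up to 2000 and -0.066 for the 35 above. By coding length, the median in germ cells was -0.69 for the 10 members up to 300 bases, -0.18 for the 17 from there to 400, -0.048 for the 21 up to 500 and 0.0043 for the 35 above. In somatic cells the medians were 0.43, 0.21, 0.15 and 0.16, and in the difference -1.14, -0.40, -0.21 and -0.17. The class up to 300 bases held all 5 members called in germ cells and 8 of the 15 called in the difference. Rpl30 and Rpl31, just past the threshold in germ cells, have longer coding sequences of 345 and 387 bases. Subunits did not differ much in length, with a median coding length of 453 bases for the small and 480 bases for the large subunit.

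The 10 short members were Rpl41, Rpl39, Rpl39l, Rps29, Rps28, Rpl38, Rps21, Rps27, Rpl37a and Rpl37. Their fold changes in germ cells ran from -0.92 for Rps27 to -0.13 for Rpl39l, and those in somatic cells from 0.28 for Rpl41 to 0.52 for Rps29 (Rpl39l was not tested there). Summed over the 10, germ libraries held 1464, 1449 and 1506 CPM after dex and 1891, 2569 and 2253 CPM after saline. The somatic sums were 3497, 3292 and 3689 CPM after dex and 3105, 2775 and 2016 CPM after saline. The 73 other members summed to 36030, 36620 and 40470 CPM in germ cells after dex and 36530, 41040 and 41290 CPM after saline, with overlap. Short members therefore took 3.77% ± 0.16 of the member counts in germ cells after dex and 5.33% ± 0.50 after saline (SD, n = 3). In somatic cells this share was 6.08% to 6.77% after dex and 4.38% to 6.47% after saline, with overlap.

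**Figure D3:**
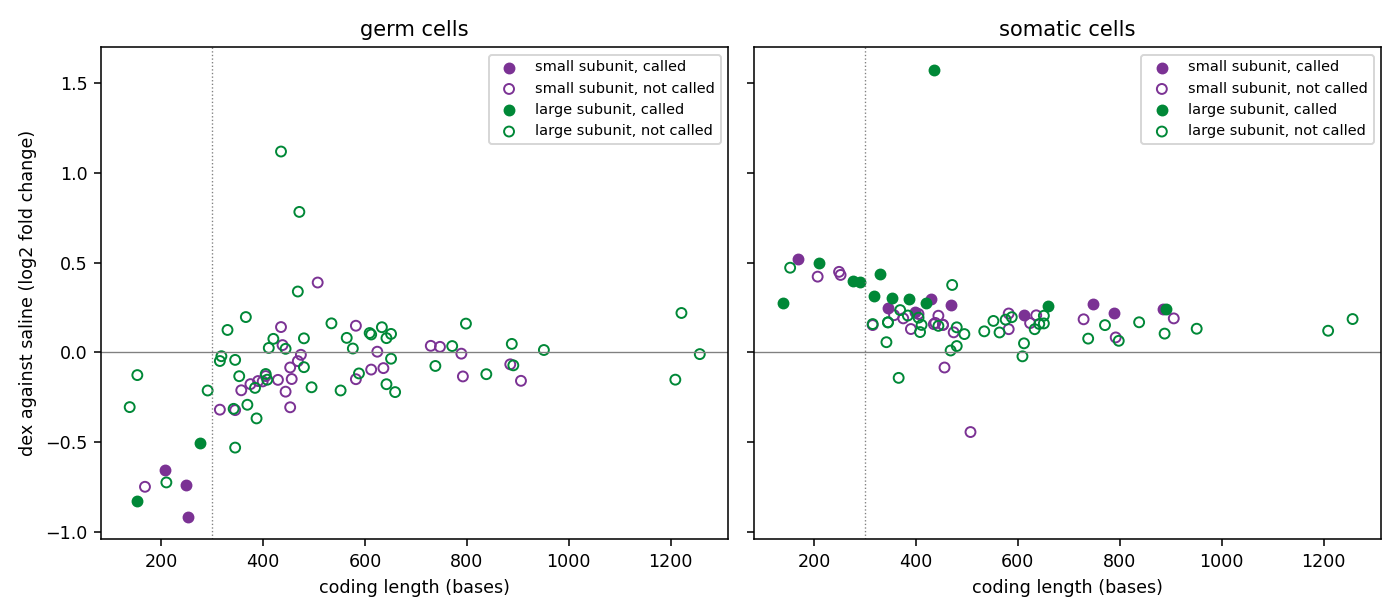
Log2 fold change of dex against saline (vertical axis, shared) against coding length in bases for each member, in germ cells (left) and somatic cells (right). Filled points were called, and the dotted line marks 300 bases. In germ cells the 5 filled points lie left of the line, while most longer members lie near 0.

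Among protein-coding genes outside the family with a coding length up to 300 bases, the median was -0.066 in germ cells (217 genes) and 0.057 in somatic cells (243 genes). In germ cells 4 of the 217 were called lower, where the background over all genes tested was 0.119%. In somatic cells 12 of the 243 were called higher and 10 lower, where the background was 4.81% and 3.36%. For the 15 of these with a mean level of at least 100 CPM, the medians were -0.11 and 0.028, with 1 called lower in germ cells. Subunits of the respiratory chain, many of which are short and abundant, gave -0.15 in germ cells (22 genes) and 0.14 in somatic cells (20 genes) in the same length class, and 2 of these subunits fell in germ cells, Cox6c (-0.45) and Ndufc1 (-0.51), both with an edgeR adjusted p of 0.0435. When a trend on gene_length was removed from each library, 10 members were called lower in germ cells, and when a trend on transcript length was removed, a setting chosen after seeing the data, 9 were. In somatic cells the transcript length trend left 10 members called higher in place of 21, with a median of 0.13 in place of 0.18. RNA integrity and fragment size, which can act on short transcripts, were not tested.

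Rpl26, Rps3a1 and Rpl29 varied far more between libraries of the same group than the rest of the family. The SD of log2 CPM within groups was 0.85 for Rps3a1, 0.83 for Rpl26 and 0.37 for Rpl29, and the median over members was 0.11. Rpl26, a large subunit protein known to bind p53 mRNA, rose in somatic cells by 1.57 (SE 0.31, edgeR adjusted p = 0.00653), with 89.4, 262 and 305 CPM after dex and 82.6, 77.2 and 60.6 CPM after saline. Dex library 1 was thus close to the saline libraries, and the fold change rests on dex libraries 2 and 3. The call was lost without somatic saline library 3 (edgeR adjusted p = 0.0576). In germ cells Rpl26 was at 60.4, 242 and 311 CPM after dex and 120, 70.2 and 94.7 CPM after saline, so the groups overlapped (1.12, edgeR adjusted p = 0.33). In both cell types dex library 1 was low and dex libraries 2 and 3 were high.

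Rps3a1, a small subunit protein at the mRNA exit, followed the library number in the same way. It was at 106, 262 and 201 CPM in the germ dex libraries and 360, 714 and 477 CPM in the somatic dex libraries, and at 234, 82.0 and 312 CPM in germ saline and 648, 176 and 641 CPM in somatic saline. Saline library 2 was low in both cell types. Its processed pseudogene Rps3a3, on chromosome 13, showed the reverse: it was at 105, 187 and 101 CPM in germ saline and 224, 427 and 172 CPM in somatic saline, highest in library 2. The sum of Rps3a1 and Rps3a3 spanned 217 to 413 CPM over the germ libraries, where Rps3a1 alone spanned 82.0 to 312 CPM. Rpl29 had the same order of libraries in germ and somatic cells under each treatment, with library 2 highest and library 1 lowest. Over all members, 19 of 83 (22.9%) held the same order in the dex libraries of both cell types, 8 (9.64%) in the saline libraries and 3 (3.61%) in both, where the background over 19390 genes was 16.9%, 16.6% and 3.17%. Numbered libraries of germ and somatic cells may come from the same pools, which the labels do not state, and reads shared with copies of these genes were not tested as a source.

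**Figure D4:**
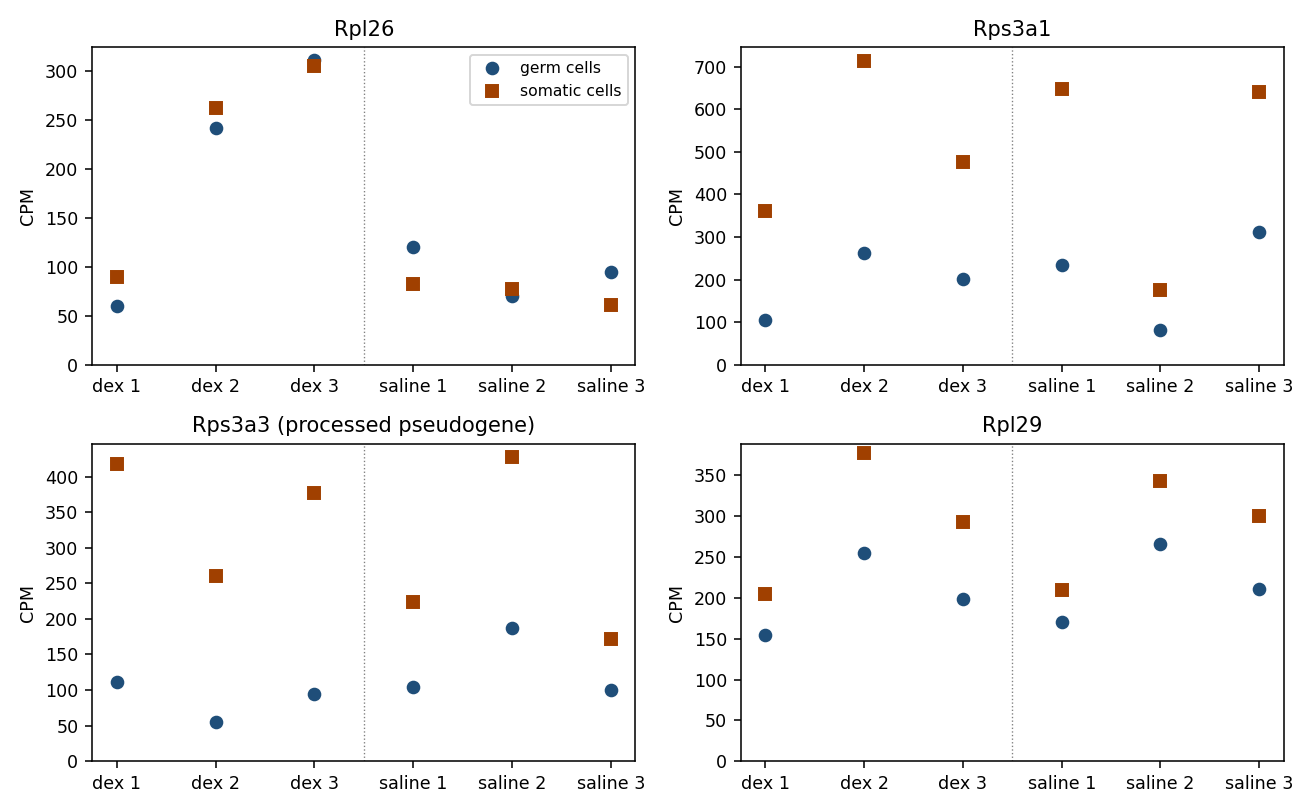
Levels of Rpl26, Rps3a1, its pseudogene Rps3a3 and Rpl29 in CPM (vertical axes, from 0) by treatment and library number, in germ cells (circles) and somatic cells (squares). In the dex libraries the 2 cell types hold the same order in each gene, in the saline libraries Rpl26 and Rps3a1 do not, and Rps3a3 is high where Rps3a1 is low in the saline libraries.

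Without dex, germ and somatic cells differed in most of these genes, as in most genes. Between the saline libraries 19 members were called higher in germ cells (22.9%) and 38 lower (45.8%), where the background over 17941 genes was 43.1% and 42.9% (edgeR). Between the dex libraries 11 were called higher (13.3%) and 59 lower (71.1%), with a background over 18171 genes of 42.0% and 42.2%. The median of germ against somatic was -0.15 in saline and -0.53 in dex libraries. The saline median is not stable in sign: it was 0.055 once a GC trend was removed, a setting chosen after seeing the data, under which the median of all genes also moved to 0.14.

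The members highest in germ cells were the paralogs. Rpl10l, an autosomal retrogene of the X-linked Rpl10, was counted 900, 876 and 923 times in germ saline libraries and 1, 0 and 0 times in somatic saline libraries. Its germ level was 54.1 ± 3.7 CPM (SD, n = 3), at least 287-fold higher than the somatic floor of 3 counts per library. Rpl39l, the paralog of Rpl39, had 280, 289 and 249 counts against 0, 0 and 2, at least 87.2-fold higher. After dex, 7 counts of Rpl10l fell in somatic library 3 and 4 of Rpl39l in somatic library 2, with 0 in the others of the group. Rpl3l was at 3.14 ± 0.47 CPM in germ saline and 0.337 ± 0.14 CPM in somatic saline libraries (log2 difference 3.21, edgeR adjusted p = 3.16e-06). Rps27l, a p53-responsive paralog of Rps27, followed at 110 ± 14.2 and 33.8 ± 10.8 CPM (1.72, edgeR adjusted p = 3.01e-07). Rps20 was then at 1192 ± 83.1 and 558 ± 26.1 CPM (1.11, edgeR adjusted p = 3.29e-09).

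FPKM divides by gene_length and not by transcript length. Rpl10 has a gene_length of 2053 bases and a transcript length of 799, and Rpl10l has 1023 in both. Rps27 has 1043 and 345, and Rps27l has 816 and 575, so the shares of such pairs depend on the length used. On the FPKM scale, Rpl10l made up 12.1% ± 1.2 of the sum of Rpl10 and Rpl10l in germ saline libraries and 10.3% ± 0.68 in germ dex libraries (SD, n = 3). Rpl39l made up 15.4% ± 3.5 of its pair with Rpl39 in germ saline and 22.5% ± 1.6 in germ dex libraries. Rps27l made up 30.2% ± 0.86 of its pair with Rps27 in germ saline and 39.5% ± 0.36 in germ dex libraries. In both of the latter pairs the parent fell after dex, while Rpl39l (log2 fold change -0.13) and Rps27l (-0.32, edgeR adjusted p = 0.218) were not called. All germ dex libraries of Rps27l nevertheless lay under its germ saline libraries. The difference between parent and paralog was not tested. In somatic cells Rpl10l and Rpl39l were under 0.1% of their pairs and Rps27l was 8.25% ± 0.66 after saline. Rpl3l was 0.990% ± 0.13 of its pair with Rpl3 in germ saline libraries. Rpl22l1, in contrast, was lower in germ cells (29.8 ± 5.2 against 51.4 ± 3.1 CPM, -0.77, edgeR adjusted p = 1.52e-05), and Rpl7l1 was not called (0.044, edgeR adjusted p = 0.584). Rps4l is annotated as a pseudogene in the file and is not a member.

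**Figure D5:**
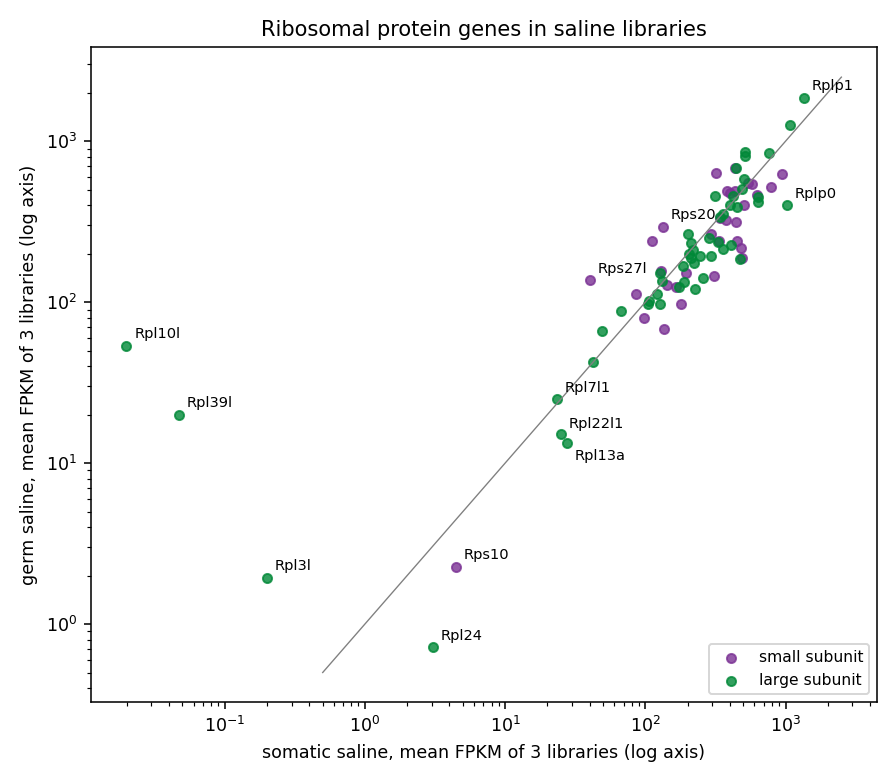
Mean FPKM of each member in germ saline libraries (vertical log axis) against somatic saline libraries (horizontal log axis), with the line of equality. Most members lie above 100 FPKM near the line, and Rpl10l, Rpl39l and Rpl3l lie far to the left.

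Among the lowest members in germ against somatic saline libraries were Rpl24 (-2.15), Rplp0 (-1.41), Rpl41 (-1.40) and Rps3a1 (-1.21), all called. For Rps3a1 the germ and somatic libraries overlapped. The Rpl24 value rests on few reads, 16, 11 and 9 counts in germ saline and 53, 62 and 40 in somatic saline libraries. Rplp0, the core of the stalk, was at 659, 652 and 660 CPM in germ saline and 1728, 1739 and 1817 CPM in somatic saline libraries, with no overlap. The values of its partners were 0.40 for Rplp1 (edgeR adjusted p = 0.00101) and 0.089 for Rplp2 (edgeR adjusted p = 0.354), and with the transcript length trend removed they were -0.043 and -0.45. The difference between these genes was not tested. Rpsa was at -0.012, Rpl10 at -0.25, Rpl3 at -0.66, Rpl22 at -0.15, Rpl7 at -0.062, Rps4x at -0.63, Rps27 at -0.54 and Rpl39 at -0.15. Of these 8, Rpl10, Rpl3, Rps4x and Rps27 were called, although the Rps27 libraries overlapped. With the gene_length trend removed Rpsa, Rpl10, Rpl22 and Rpl7 turned positive and Rplp1 negative.

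Over the 12 libraries the member levels spanned 1.10 to 1526 FPKM with a median of 245, and 69 of 83 exceeded 100 FPKM. The highest means were those of Rplp1 (1526), Rpl17 (1149), Rpl4 (825), Rps15 (824) and Rplp0 (738). Small subunit members had a median of 345 FPKM and large subunit members 221 FPKM. At the other end Rpl24 had 9 to 95 counts and Rps10 had 66 to 214 counts per library, far under their partners in the ribosome. The source of these low counts was not tested, and the rule for reads with several matches is not known. Ribosomal protein genes that the name rule leaves out include Fau, Rpl36al and Rps27rt. Rps27rt, named as a copy of Rps27, was higher after dex in somatic cells (1.46, edgeR adjusted p = 0.00399) and lower in the difference (-2.29, edgeR adjusted p = 0.00951). Its germ value of -0.81 had an edgeR adjusted p of 0.282. Fau (0.20 in somatic cells, edgeR adjusted p = 0.0541) and Rpl36al (-0.44, edgeR adjusted p = 0.609) were not called by edgeR in either cell type, and DESeq2 called Fau in somatic cells (DESeq2 adjusted p = 0.00899).

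Related gene lists were examined in the same fits. Their counts at an unadjusted p and their DESeq2 calls, which are by adjusted p, have no share over all genes beside them. Of 77 mitochondrial ribosomal protein genes, which serve a separate ribosome, 0 were called in either cell type by edgeR or DESeq2, with 9 lower and 1 higher in germ cells and 8 higher in somatic cells at an unadjusted p under 0.05, and their medians were -0.053 and 0.045. Mrpl43 alone was called by edgeR in the difference (-0.56, edgeR adjusted p = 0.0407), where DESeq2 called 4 lower. That edgeR call is 1.3% of the list, near the background of 1.13% called lower. Of 17 other TOP mRNAs, 0 were called in germ cells by edgeR, with 4 lower and 1 higher at an unadjusted p under 0.05 and 2 called lower by DESeq2. In somatic cells Tpt1, a growth-related TOP mRNA, rose by 0.29 (edgeR adjusted p = 0.0101). It was the single call there, 5.88% of the list, where the background was 4.81% called higher. In the difference Tpt1 (-0.48), Pabpc1, the poly-A binding protein (-0.45), and Nap1l1, a histone chaperone (-0.41), were called lower. These are 3 of 17 (17.6%), where the background was 1.13%, and the median was -0.10.

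Of 24 ribosome assembly genes, Bop1, needed for large subunit maturation, fell in somatic cells (-0.38, edgeR adjusted p = 0.0216). That is 4.17% of the list, where the background was 3.36% called lower. The medians were -0.067 in germ and -0.0083 in somatic cells. Of 14 genes that control TOP mRNAs and S6 kinase, Ddit4, an inhibitor of mTORC1 and a known glucocorticoid target, rose in somatic cells (0.57, edgeR adjusted p = 0.00634). This single call is 7.14% of the list, where the background was 4.81% called higher. In germ cells Ddit4 had a mean of 26.1 CPM after dex and 15.1 CPM after saline (0.79, edgeR adjusted p = 0.0503, DESeq2 adjusted p = 0.000301), and its difference between the cell types was 0.21 (edgeR adjusted p = 0.644). Of the respiratory chain subunits 3 of 72 (4.17%) rose in somatic cells, Ndufa6, Uqcr10 and Uqcrh, where the background was 4.81%, and 5 of 74 were called lower in the difference, where it was 1.13%, Cox6c (-0.63), Cox7c (-0.70), Ndufa6 (-0.50), Ndufb9 (-0.74) and Ndufs7 (-0.50). Of 395 ribosomal protein pseudogenes, 51 passed the filter in germ and 53 in somatic cells, and 0 were called in either by edgeR, with 7 lower and 2 higher in germ cells and 1 lower and 10 higher in somatic cells at an unadjusted p under 0.05, and 1 in each called by DESeq2. Their medians were 0.14 in germ cells, 0.56 in somatic cells (43 of 53 positive) and -0.44 in the difference (46 of 63 negative).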

How the data were processed

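The authors and their sequencing provider aligned poly-A selected, randomly primed read pairs to mm10 with HISAT2 2.0.5 and deposited raw counts per gene from featureCounts 1.5.0-p3. The authors also deposited FPKM per gene, and the columns of their own DESeq2 1.20.0 comparisons were not used. The strand setting and the rule for reads with several matches are not given in the sources used here. Members and lists were chosen with earlier results of these data known.

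Counts were tested in R 4.3.3 with edgeR 4.0.16 (quasi-likelihood, TMM, filterByExpr), on the whole table of genes, in 5 comparisons of the groups given by the labels. Benjamini-Hochberg (BH) adjustment ran over all genes tested, and a gene at an adjusted p of at most 0.05 was called. SE was derived from the fold change and F. Each test compares pools of embryos, 3 per group. Libraries of a group differed by more than sampling noise (chi-square per degree of freedom 5.48 to 21.8). Levels are CPM or FPKM, and intervals and floors cover counting error only. The named members were Rpsa and the stalk genes, paralog pairs, members called after dex (up to 12 per somatic and difference comparison, by adjusted p), the 5 highest and 5 lowest per comparison, and the 5 highest by FPKM. Further members called were named after their values were seen. Some members the rule names are not reported here. Alternatives were DESeq2 1.42.0, its size factors, library totals, TMM without members, no filter, trends on gene_length, transcript length and GC removed, the replicate number as a block, and each library left out. The fits were tested on simulated data. In these, 200 genes with a mean count of at least 50 were changed, and the spread followed the dispersion trend over genes. The rates need not hold for members of wider spread, such as Rps3a1 and Rpl26, or where fewer genes change. Of 2-fold changes, 85% were recovered in the germ fit (16477 genes), 90% in the somatic fit (16291 genes) and 77% in the difference (19020 genes). Of changes of 0.5 on the log2 scale, 49%, 60% and 26% were recovered, and 6.29%, 5.06% and 6.36% of the calls were false.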

Additional observations from a re-analysis of the deposited data

Results flagged for a closer look

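The difference between the dex effect in germ cells and that in somatic cells passed its own test for 15 members of which 14 are given, each with the germ effect lower (edgeR interaction contrast over 12 libraries, BH-adjusted p at most 0.05). On the log2 scale the differences were -1.36 for Rps27, -1.31 for Rpl39, -1.28 for Rps29, -1.23 for Rpl38, -1.20 for Rps21, -1.09 for Rps28, -0.91 for Rpl37a, -0.71 for Rpl30, -0.68 for Rpl31, -0.61 for Rpl37, -0.58 for Rps26, -0.54 for Rpl35, -0.47 for Rps14 and -0.43 for Rps20. Among them, 4 were called in neither cell type alone (Rpl30, Rpl35, Rps14 and Rps20). Groups of 3 libraries were not tested for outlying libraries.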

How the results depend on the processing

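In germ cells, 5 members were called lower and 0 higher. Lower calls numbered 11 with DESeq2, 15 with no low-count filter, 10 with the gene_length trend removed, 9 with the transcript length trend removed (chosen after seeing the data) and 3 with library totals. Leaving out a library gave 3 to 11 lower and 0 to 1 higher. Higher calls numbered 1 with DESeq2 and 2 with no filter. The 21 somatic rises became 35 with DESeq2, 10 with library totals, 10 with the transcript length trend removed and 2 to 18 with a library left out. The 15 calls in the difference became 26 with DESeq2, 28 with no filter and 8 to 22 with a library left out. Germ against somatic saline gave 19 higher and 38 lower, against 34 higher with the gene_length trend removed and 36 higher and 24 lower with the GC trend removed (chosen after seeing the data). The median of members there was -0.15, and -0.041, 0.055 and -0.40 with the gene_length, GC and transcript length trends removed. Against the median of all genes, which these settings moved to 0.18, 0.14 and 0.17, it stayed lower in each. In dex libraries 11 became 19 higher with the GC trend removed, and the median of -0.53 became -0.33, -0.25 and -0.65. Among named members called in either fit, signs turned only in the comparisons of germ with somatic cells. With the gene_length trend removed, saline values became -0.39 for Rplp1, 0.036 for Rpl10, 0.23 for Rpl22, 0.38 for Rpsa and 0.31 for Rpl7, and the dex value of Rpl7l1 became 0.20. With the GC trend removed, Rpsa became 0.85 in saline and 0.37 in dex, and Rplp1 and Rplp2 became 0.80 and 0.50 in dex. With the transcript length trend removed, saline values became -0.043 for Rplp1, -0.45 for Rplp2 and 0.32 for Rpsa. Causes were not tested. Shares of counts in members were 5.61% and 5.05% in somatic dex and saline libraries over protein-coding counts without mitochondrial and haemoglobin genes, and 4.87% in somatic saline with pseudogenes and genes outside the rule added (main 5.27% and 4.72%).

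Same-numbered germ and somatic libraries of a treatment deviated together only weakly (r from 0.054 to 0.099), although each correlated best with its own number, a hint from the data and not from the design. A higher r of 0.132 was found across treatments, between germ dex library 1 and germ saline library 1. The other same-numbered pairs across treatments had r from -0.0097 to 0.048. The numbers were therefore not taken as pairs. With the replicate number as a block, 7 members were called lower in germ cells, 22 higher in somatic cells and 13 lower in the difference, and 20 higher and 40 lower in germ against somatic saline. The block with the gene_length trend removed gave 13 lower and 1 higher in germ cells and 34 higher in germ against somatic saline, with medians of -0.042 in saline and -0.33 in dex, and among named members -0.40 for Rplp1, 0.035 for Rpl10, 0.23 for Rpl22, 0.38 for Rpsa and 0.31 for Rpl7 in saline and 0.21 for Rpl7l1 in dex. Members under 100 counts per library, such as Rpl24 and Rpl3l, carry a large counting error.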
